A study of Mus musculus with 18 samples.

Results

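The creatine kinase and phosphotransfer genes described here are 7 of the 55450 genes in the count table: Ckm, Ckmt2 and Ckb, which encode creatine kinases, Slc6a8, which encodes the creatine transporter, and Ak1, Ak3 and Ak4, which encode adenylate kinases. They were chosen by name and matched through their Ensembl identifiers, and all 7 were among the 16270 genes with enough counts to be tested. RNA sequencing was done on left ventricle (LV) of male FVB/N mice, either wild type (WT) or overexpressing Gαq, a G protein alpha subunit encoded by Gnaq, only in the heart. From 4 to 20 weeks of age the mice ate control chow (CD) or the same with 0.5 mg per g of ertugliflozin (ERTU), which blocks the renal glucose transporter SGLT2. Each of the 18 libraries came from the LV of 1 heart, with 4 WT libraries on CD and 5 on ERTU, and 5 Gαq libraries on CD and 4 on ERTU. The promoter of the transgene was not given in the sources used here. Libraries are named by their group and the number in the table, which runs across the series.

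Creatine kinase moves a phosphate group between ATP and creatine. The mitochondrial enzyme forms phosphocreatine where ATP is made, and the cytosolic enzyme returns the phosphate to ADP where ATP is used, at the myofibrils and the ion pumps. Cardiomyocytes do not make creatine themselves in quantity and take it up from blood through the transporter. Adenylate kinases interconvert ADP with ATP and AMP, and the AMP they form is the signal read by the AMP-activated protein kinase. A lowered creatine pool and lowered creatine kinase activity are long-known features of the failing heart.

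Both muscle-type creatine kinase genes were lower in Gαq LV than in WT LV on either diet, Ckm by 35.6% and Ckmt2 by 35.1% over both diets, and no WT library was as low as any Gαq library. How many of all genes separate the genotypes in this way was not counted, for these or the genes named below. By the p of the genotype test, Ckm ranked 332 and Ckmt2 356 among the genes tested. Ckb stood at the same mean level in both genotypes. Ak3 and Ak4 were lower in Gαq by smaller amounts, and both calls were lost in 1 or more of the fits without 1 library. Slc6a8 and Ak1 did not pass the test. None of the 7 genes passed the test for ERTU in either genotype, where 0% of all genes tested in WT and 0.00615% in Gαq passed. Ckmt1, the remaining creatine kinase gene, is close to silent in WT LV and was 3.98-fold higher in Gαq.

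The promoters of the 4 creatine kinase genes are shown, because Ckm and Ckmt2 were lower and Ckmt1 higher in Gαq while Ckb did not pass the test. They are printed for reference as RefSeq gives them on GRCm38.p6, from 250 bases before to 50 bases after the start site. Capitals mark matches on either strand to the motifs listed after the sequences.
Ckm promoter, chr7:19410844-19411143, plus strand: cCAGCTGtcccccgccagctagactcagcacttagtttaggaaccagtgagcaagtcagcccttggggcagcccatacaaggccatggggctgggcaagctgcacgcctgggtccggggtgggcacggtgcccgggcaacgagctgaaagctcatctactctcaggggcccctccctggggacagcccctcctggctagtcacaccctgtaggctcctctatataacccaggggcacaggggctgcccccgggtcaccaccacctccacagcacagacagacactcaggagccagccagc
Ckmt2 promoter, chr13:91876836-91877135, minus strand: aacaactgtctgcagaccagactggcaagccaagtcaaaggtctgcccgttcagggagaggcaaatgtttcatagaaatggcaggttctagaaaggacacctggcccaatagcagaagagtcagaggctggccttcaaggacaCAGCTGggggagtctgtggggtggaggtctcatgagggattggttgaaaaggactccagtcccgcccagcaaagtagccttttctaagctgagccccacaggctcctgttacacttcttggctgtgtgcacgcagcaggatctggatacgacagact
Ckb promoter, chr12:111672289-111672588, minus strand: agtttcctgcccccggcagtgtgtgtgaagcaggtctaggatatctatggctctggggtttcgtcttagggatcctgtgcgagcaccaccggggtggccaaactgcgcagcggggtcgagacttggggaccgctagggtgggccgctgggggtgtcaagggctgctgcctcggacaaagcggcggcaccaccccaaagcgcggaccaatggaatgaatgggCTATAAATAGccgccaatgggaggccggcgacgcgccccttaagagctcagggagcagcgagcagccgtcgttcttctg
Ckmt1 promoter, chr2:121357526-121357825, plus strand: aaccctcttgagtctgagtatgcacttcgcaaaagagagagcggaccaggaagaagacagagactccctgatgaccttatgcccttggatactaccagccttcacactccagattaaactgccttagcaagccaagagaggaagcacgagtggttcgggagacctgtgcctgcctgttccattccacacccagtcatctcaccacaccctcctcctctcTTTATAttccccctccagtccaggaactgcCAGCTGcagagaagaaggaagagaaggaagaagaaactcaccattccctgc

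The first motif searched was the E-box CAGCTG, a kind of site bound by muscle regulatory factors. It stood at position -249 from the start site of Ckm, at -107 in Ckmt2 and at -1 in the window of Ckmt1 shown. It also stood in windows of Ak1 and Ak3, and 16.3% of all 32851 promoter windows of that length held it. The MEF2 site and the TATA box, searched as TATAAA, were matched in the Ckb window at -29 and -28, where they overlap. They also overlap in a window of Ak1, but at 21 and 22, past the start site. Only the exact letters TATAAA were counted as a TATA box, so the tatataa printed for Ckm was not. Of all windows, 3.19% held a MEF2 match and 13.6% a TATA box. The Ckmt1 window held the TATA letters on the opposite strand at -31, and a further RefSeq window of Ckmt1 held none of the motifs. A GATA factor motif, searched as AGATAA, was in no window of these genes and in 11.2% of all windows. The estrogen-related receptor element, searched as TNAAGGTCA, and the CArG box were likewise in no window of these genes, against 1.28% and 1.63% of all windows. The Ckb window held 22 CpG dinucleotides, the Ckm window 7 and the Ckmt2 window 4, beside a median of 7 over all windows. Slc6a8 had no entry.

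Levels between genes were compared as counts scaled to library size (CPM) divided by the length of the merged exons of the gene in kilobases. On that scale, averaged over the 18 libraries, Ckmt2 was highest (1435 CPM per kb), followed by Ckm (709), Ak1 (216), Slc6a8 (48.1), Ak3 (42.8), Ckb (14.1), Ak4 (6.74) and Ckmt1 (0.520). Ckmt2 ranged from 935 to 2133 CPM per kb and Ckm from 440 to 956, so that the lowest Ckmt2 value was below the highest Ckm value. Slc6a8 (39.7 to 65.8) and Ak3 (36.0 to 51.2) overlapped over most of their range, and the lowest Ckb value was below the highest Ak4 value. Ckm and Ckmt2 together made up almost all of the creatine kinase message of these ventricles.

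Gnaq was read first as a check of the genotype. It ranged from 45.5 to 229.7 CPM in the 9 WT libraries and from 1641 to 11672 CPM in the 9 Gαq libraries. By group, Gnaq was at 7473 ± 3818 CPM in Gαq CD (SD, n = 5) and 3216 ± 1371 CPM in Gαq ERTU (SD, n = 4), and the groups overlapped. The ERTU change of Gnaq in Gαq was -1.22 ± 0.52 (log2, SE; 95% interval -2.30 to -0.13; adjusted p = 0.653), and its part in the ERTU comparisons within Gαq was not tested. Total counts ran from 15383566 to 20908363 per library. All 10 cardiomyocyte markers were detected in every library, with a summed level of 41566 to 61265 CPM. Skeletal muscle markers, which matter because Ckm and Ak1 are abundant in that tissue, summed to 2.44 to 11.6 CPM, and Myh1, Myh2, Myh4 and Actn3 were at 0 in some libraries. WT CD 5 and WT ERTU 14 stood apart from the other WT libraries, with the lowest cardiomyocyte marker sums of their groups (41566 and 47205 CPM) and the highest fibroblast marker sums (6574 and 6140 CPM). Their sums of atrial markers (321 and 335 CPM) and fat markers (1491 and 1758 CPM) were also the highest of their groups. The same held for macrophage markers (378 and 299 CPM) and for Schwann cell and neuron markers (17.8 and 18.3 CPM). The part of these cell types in the Ckm levels of these libraries was not tested. In bulk tissue, fewer cells of a type and less RNA per cell cannot be told apart.

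Ckm encodes the cytosolic muscle isoform of creatine kinase (ENSMUSG00000030399, GRCm38 chromosome 7, 19404776 to 19422841, plus strand). In WT CD it stood at 2611, 2634, 2589 and 1910.0 CPM in libraries 1, 2, 4 and 5, a mean of 2436 ± 351 CPM (SD, n = 4). In WT ERTU it stood at 2733, 2739.6, 2784, 2012 and 2641 CPM in libraries 11 to 15, a mean of 2582 ± 323 CPM (SD, n = 5). Within each of these groups 1 library, the one low in cardiomyocyte markers, lay well under the rest. In Gαq CD the gene stood at 1867, 1280.3, 1633, 1565 and 1601 CPM in libraries 6 to 10, a mean of 1589 ± 209 CPM (SD, n = 5). In Gαq ERTU it stood at 1677, 1679, 1645 and 1574 CPM in libraries 16, 17, 18 and 20, a mean of 1644 ± 49.2 CPM (SD, n = 4). All 9 Gαq libraries were below all 9 WT libraries, the nearest being Gαq CD 6 and WT CD 5.

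Ckmt2 encodes the sarcomeric mitochondrial creatine kinase, which sits between the mitochondrial membranes (ENSMUSG00000021622, GRCm38 chromosome 13, 91853387 to 91876885, minus strand). In WT CD it stood at 2714, 2591, 2358 and 2012 CPM in libraries 1, 2, 4 and 5, a mean of 2419 ± 309 CPM (SD, n = 4). In WT ERTU it stood at 3169, 2958, 2484, 2357 and 2690.1 CPM in libraries 11 to 15, a mean of 2732 ± 334 CPM (SD, n = 5). The same WT CD 5 and WT ERTU 14 were the lowest of their groups. In Gαq CD Ckmt2 stood at 1945, 1389, 1790.3, 1688 and 1644 CPM in libraries 6 to 10, a mean of 1691 ± 205 CPM (SD, n = 5). In Gαq ERTU it stood at 1793, 1524, 1555 and 1717 CPM in libraries 16, 17, 18 and 20, a mean of 1647 ± 129 CPM (SD, n = 4). The genotypes did not overlap, although Gαq CD 6 came close to WT CD 5.

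**Figure D1:**
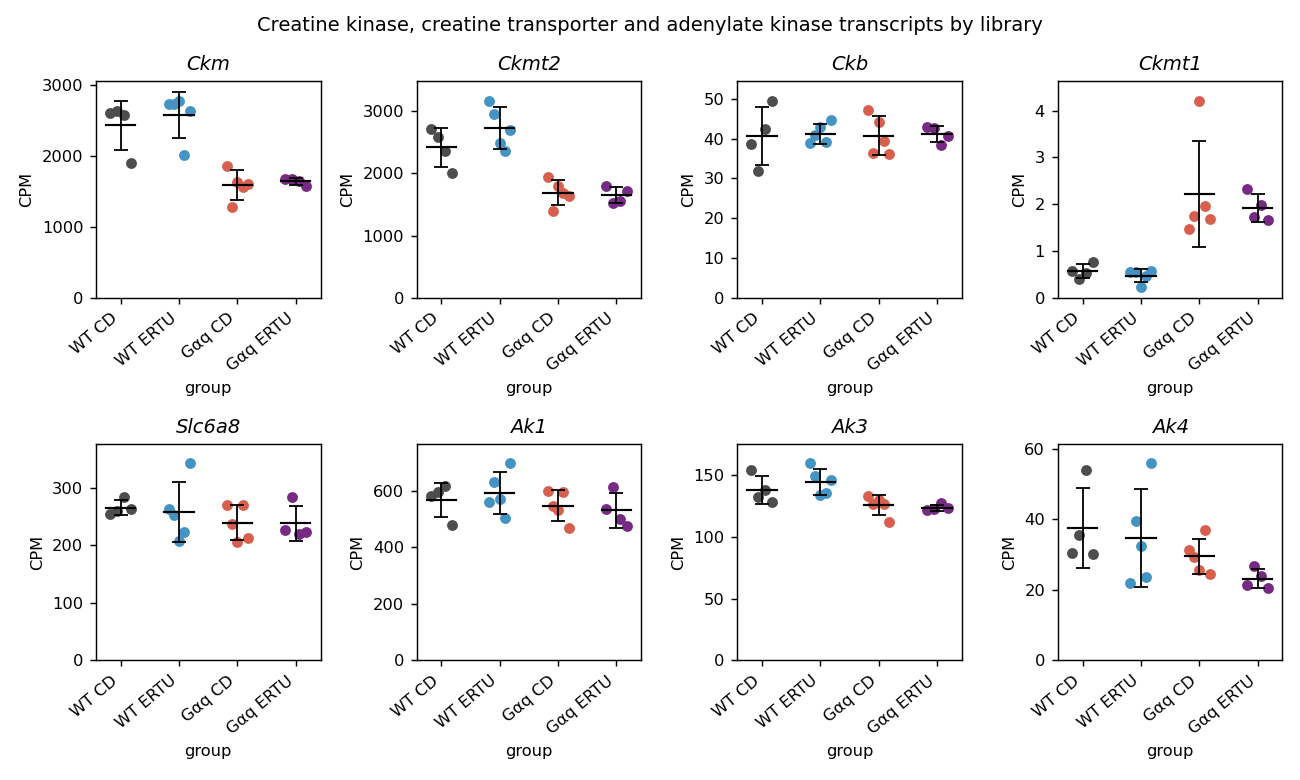
Level of each gene in CPM (vertical axis, from 0) in the 4 groups, with 1 point per library, horizontal bars for group means and error bars for the SD. All Ckm and Ckmt2 points of Gαq libraries lie below those of WT libraries, Ckmt1 shows the opposite order, and the groups overlap for the other genes.

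The comparison of genotypes, with diet in the model, asked which of these genes differed with Gαq overexpression. Of the 7 genes, 4 were lower in Gαq at an adjusted p under 0.05 and 0 were higher, while over all genes tested 19.6% were called, 9.92% lower and 9.72% higher. The median log2 change of the 7 was -0.18, beside 0.00 over all genes. Ckm fell by 0.63 ± 0.087 (log2, SE; adjusted p = 2.01e-05) and Ckmt2 fell by 0.62 ± 0.087 (adjusted p = 2.54e-05). Both calls held in every alternative run, including each fit without 1 library, with log2 changes from -0.68 to -0.53 for Ckm and from -0.67 to -0.55 for Ckmt2.

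On CD alone, Ckm fell by 0.62 ± 0.13 (log2, SE; adjusted p = 0.00368) and Ckmt2 fell by 0.52 ± 0.12 (adjusted p = 0.0103), the only genes of the 7 called, while 8.1% of all genes were called, 4.1% lower. Without WT CD 1 the change of Ckmt2 was -0.46 and its adjusted p 0.0524. On ERTU alone, Ckm fell by 0.65 ± 0.13 (adjusted p = 0.00262) and Ckmt2 fell by 0.73 ± 0.12 (adjusted p = 0.000812), again 2 of 7 genes, where 8.17% of all genes were called, 4.24% lower. The difference between the 2 diets in the genotype change was -0.21 ± 0.17 for Ckmt2 (95% interval -0.57 to 0.15) and -0.04 ± 0.18 for Ckm (-0.41 to 0.34), and neither passed the test.

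ERTU-treated Gαq LV was also compared with untreated WT LV, the reference group of the series, a comparison that shares its WT CD libraries with Gαq on CD. Ckm was 32.5% lower (adjusted p = 0.0154) and Ckmt2 31.9% lower (adjusted p = 0.0137), 2 of 7 genes, where 5.24% of all genes were called, 2.61% lower. Both calls lay near the threshold. Ckm, with a log2 change of -0.57, lost its call without WT CD 1, WT CD 2 or Gαq ERTU 20, where the change was -0.53, -0.53 and -0.55 (adjusted p = 0.0532, 0.0508 and 0.0509). Ckmt2, with a log2 change of -0.55, lost it without WT CD 1 or Gαq ERTU 18, where the change was -0.49 and -0.53 (adjusted p = 0.0568 and 0.0525). The largest fitted fall of the 7 here was that of Ak4, -0.69 ± 0.24 (log2, SE; adjusted p = 0.111), which did not pass. Ak4 was called by limma voom (adjusted p = 0.0486), in the fit of only the groups compared (0.0488) and without WT ERTU 15 (0.0471).

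**Figure D2:**
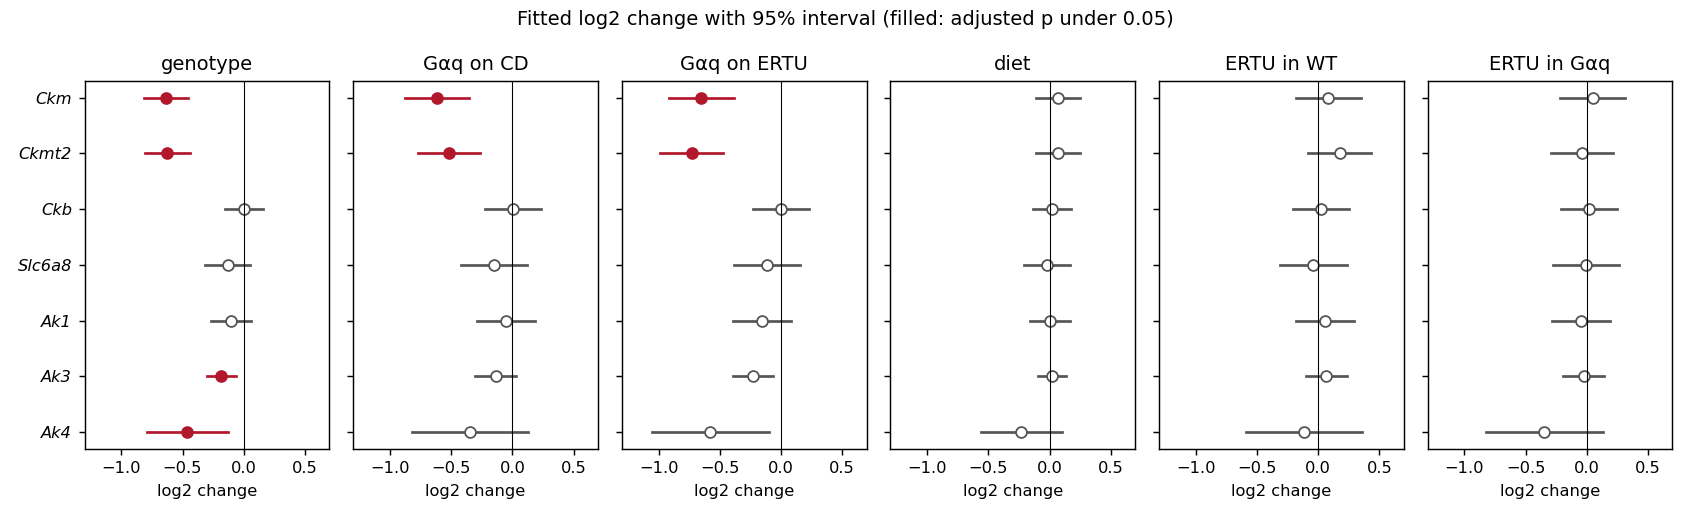
Fitted log2 change (horizontal axis) with its 95% interval for the 7 genes in 6 comparisons, Gαq against WT in the first 3 panels and ERTU against CD in the last 3. Filled red points passed an adjusted p of 0.05, which Ckm and Ckmt2 did in each genotype panel, Ak3 and Ak4 in the first panel, and no gene in the diet panels.

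Ckm and Ckmt2 are made by cardiomyocytes, so their level was set beside the mean log2 CPM of the 10 cardiomyocyte markers, which include neither gene. Of these 10 markers, 1 was higher and 3 were lower in Gαq, and their summed level in WT lay between 41566 and 60131 CPM on CD and between 47205 and 59847 CPM on ERTU, and in Gαq between 52168 and 61265 CPM on CD and between 49957 and 59524 CPM on ERTU. Relative to the marker mean, Ckm ran from -1.03 to -0.84 log2 units in WT libraries and from -1.74 to -1.42 in Gαq libraries. Ckmt2 ran from -1.12 to -0.71 in WT and from -1.70 to -1.29 in Gαq. On this scale WT CD 5 and WT ERTU 14 no longer stood apart for Ckm, and the genotypes still did not overlap. With the marker level as a covariate, an alternative chosen after the data were seen, Ckm changed by -0.53 by genotype (adjusted p = 1.87e-06) and Ckmt2 by -0.55 (adjusted p = 2.16e-05).

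Fibroblast markers moved the other way, 6 of 8 being higher in Gαq, with sums of 3368 to 6574 CPM (CD) and 3606 to 6140 CPM (ERTU) in WT, and 5036 to 7570 CPM (CD) and 5713 to 6696 CPM (ERTU) in Gαq. Of the other cell type markers tested, 2 of 7 for endothelium and 1 of 6 for smooth muscle and pericytes were lower. Higher were 1 of 8 for macrophages, 1 of 3 for lymphocytes and 2 of 5 for skeletal muscle. None of the 4 atrial markers passed the test, but all 4 had positive log2 changes (median 1.40), with sums of 5.56 to 335 CPM in WT and 14.6 to 907 CPM in Gαq. The part of these cell types in the lower Ckm and Ckmt2 levels was not tested.

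**Figure D3:**
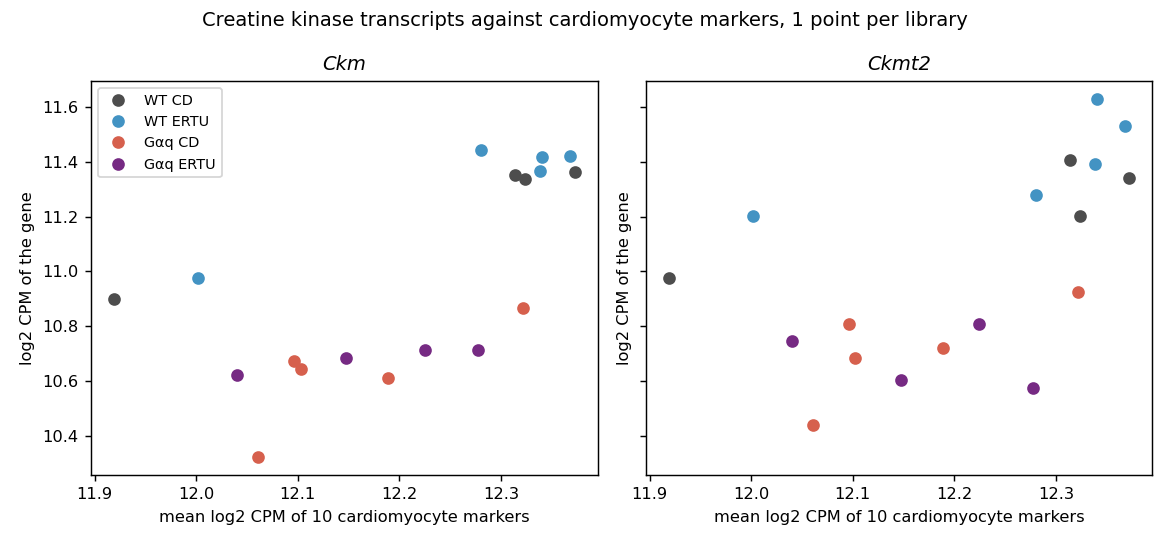
Log2 CPM of Ckm (left) and Ckmt2 (right) against the mean log2 CPM of 10 cardiomyocyte markers, with 1 point per library coloured by group. All Gαq libraries lie below all WT libraries, including WT CD 5 and WT ERTU 14, the 2 points farthest left.

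Across all 18 libraries, log2 levels of Ckm and Ckmt2 had a Pearson correlation of 0.95 (Spearman 0.89), and 0.79 (Spearman 0.60) after the group means were taken out. These points share library depth and tissue composition. The ratio of Ckm to Ckmt2 per kb was 0.513 ± 0.0344 in WT CD, 0.484 ± 0.0557 in WT ERTU, 0.479 ± 0.0135 in Gαq CD and 0.512 ± 0.0463 in Gαq ERTU (SD). The ratio therefore differed between group means by no more than the spread within the WT ERTU group.

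Ckb encodes the brain-type cytosolic isoform, which the heart expresses at a low level (ENSMUSG00000001270, GRCm38 chromosome 12, 111669361 to 111672338, minus strand). It stood at 38.6, 32.0, 42.4 and 49.5 CPM in the WT CD libraries 1, 2, 4 and 5 and between 38.9 and 44.6 CPM in the 5 WT ERTU libraries. In Gαq CD it ran from 36.2 to 47.3 CPM and in Gαq ERTU from 38.4 to 42.9 CPM. The 4 group means, 40.6 ± 7.34, 41.3 ± 2.48, 40.7 ± 4.88 and 41.2 ± 2.11 CPM (SD), lay within 1 CPM of each other. The log2 change by genotype was 0.00 ± 0.076, with a 95% interval of -0.16 to 0.16, an interval that leaves out a fall of the size seen in Ckm.

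The ratio of Ckm to Ckb per kb was 62.1 ± 18.1 in WT CD and 62.2 ± 7.42 in WT ERTU, and 38.8 ± 3.42 in Gαq CD and 39.7 ± 1.90 in Gαq ERTU (SD). Ckb made up 0.583% of the creatine kinase message per kb in WT CD, 0.526% in WT ERTU, 0.831% in Gαq CD and 0.844% in Gαq ERTU. WT CD 5 overlapped the Gαq libraries in both measures. Its ratio was 38.3 and its Ckb share 0.844%, where Gαq CD ran from 34.9 to 43.9 and from 0.750% to 0.908%. These shares depend on the length assigned to Ckb. With the longest principal transcript in place of the merged exons they were 1.12%, 1.01%, 1.59% and 1.61%, and the ratio of Ckm to Ckb was 33.5 and 33.6 in WT and 20.97 and 21.5 in Gαq on CD and ERTU. The order of the groups was unchanged. The summed creatine kinase message was 2478 ± 318 CPM per kb in WT CD, 2739 ± 305 in WT ERTU, 1699 ± 210.2 in Gαq CD and 1688 ± 84.6 in Gαq ERTU (SD).

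Ckmt1 encodes the ubiquitous mitochondrial creatine kinase of brain and other tissues (ENSMUSG00000000308, GRCm38 chromosome 2, 121357714 to 121363737, plus strand). It stood at 0.577, 0.399, 0.521 and 0.753 CPM in the WT CD libraries 1, 2, 4 and 5 and between 0.219 and 0.580 CPM in WT ERTU. In Gαq CD it stood at 1.48, 1.74, 4.21, 1.97 and 1.69 CPM in libraries 6 to 10, and in Gαq ERTU between 1.65 and 2.32 CPM. No WT library reached the lowest Gαq library. The change by genotype was 1.99 ± 0.23 (log2, SE; adjusted p = 3.41e-06), with 1.98 ± 0.34 on CD and 2.01 ± 0.34 on ERTU (adjusted p = 0.000891 and 0.000792).

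These Ckmt1 levels rest on few reads, 4 to 12 read pairs per WT library and 24 to 92 per Gαq library. Gαq CD 8, the highest, also had the highest sums of atrial markers (907 CPM) and fibroblast markers (7570 CPM). Medians of the atrial sum were 21.7 to 215.5 CPM in the 4 groups. Of all libraries it was also highest for Schwann cell and neuron markers (24.1 CPM, group median 12.8 CPM) and macrophage markers (416 CPM). The part of these cell types in its Ckmt1 level was not tested. The longest run of bases shared by transcripts of Ckmt1 and Ckmt2 was 39, shorter than a read, so that whole reads could not be assigned to both. In Gαq CD, the group with the highest mean, Ckmt1 made up 0.0524% of the creatine kinase message per kb with merged exons as its length and 0.0792% with the longest transcript.

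Slc6a8 encodes the creatine transporter of the plasma membrane (ENSMUSG00000019558, GRCm38 chromosome X, 73673150 to 73682502, plus strand). In WT it lay between 255 and 284 CPM on CD and between 207 and 343 CPM on ERTU. In Gαq it lay between 207 and 270.5 CPM on CD and between 219.5 and 284 CPM on ERTU, and the groups overlapped throughout. The change by genotype was -0.13 ± 0.089 (log2, SE; 95% interval -0.32 to 0.06; adjusted p = 0.340), an interval that leaves out a fall as large as that of Ckm. The enzymes of creatine synthesis, Gatm and Gamt, which act mainly in kidney and liver, were at 6.06 to 16.4 and 3.90 to 7.22 CPM, and neither passed the genotype test (log2 change 0.18 ± 0.13 and -0.13 ± 0.11).

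Ak1 encodes the main cytosolic adenylate kinase of muscle (ENSMUSG00000026817, GRCm38 chromosome 2, 32621758 to 32635058, plus strand). Group means were 569 ± 60.4 CPM in WT CD, 592 ± 74.5 in WT ERTU, 548 ± 54.0 in Gαq CD and 531 ± 61.3 in Gαq ERTU (SD), and each group overlapped all others. The change by genotype was -0.11 ± 0.079 (log2, SE; 95% interval -0.27 to 0.06; adjusted p = 0.389).

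Ak3 encodes the adenylate kinase of the mitochondrial matrix that uses GTP (ENSMUSG00000024782, GRCm38 chromosome 19, 29020833 to 29047961, minus strand). It stood at 154, 133, 138 and 128 CPM in the WT CD libraries 1, 2, 4 and 5 and at 159.6, 149.5, 134, 136 and 146 CPM in the WT ERTU libraries 11 to 15. In Gαq CD it ran from 112 to 134 CPM and in Gαq ERTU from 122 to 127 CPM. Gαq libraries tended to the lower end, with 134 CPM in Gαq CD 6 above the lowest WT libraries, so the genotypes overlapped. Over both diets Ak3 fell by 0.18 ± 0.056 (log2, SE; adjusted p = 0.0236), which is 11.9%. Its call was lost without WT CD 1 (log2 change -0.16, adjusted p = 0.0614), without the filter on low counts (-0.18, adjusted p = 0.107) and with the cardiomyocyte marker covariate (-0.15, adjusted p = 0.0589). It was not called on CD (-0.14 ± 0.080, adjusted p = 0.356) or on ERTU (-0.23 ± 0.080, adjusted p = 0.0874). The DESeq2 Wald test and limma voom did call it on ERTU (adjusted p = 0.0305 and 0.0413). Cdc37l1, which overlaps Ak3 on the opposite strand, stood at 125 to 234 CPM, and the counting was stated to use strand.

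Ak4 encodes another adenylate kinase of the mitochondrial matrix (ENSMUSG00000028527, GRCm38 chromosome 4, 101419277 to 101466995, plus strand). It stood at 30.3, 35.6, 54.0 and 30.2 CPM in the WT CD libraries 1, 2, 4 and 5 and at 22.1, 39.6, 32.3, 23.5 and 55.8 CPM in the WT ERTU libraries 11 to 15. In Gαq CD it ran from 24.5 to 36.9 CPM and in Gαq ERTU from 20.6 to 26.8 CPM. WT CD 4 and WT ERTU 15 were far above the other WT libraries, and the remaining WT values overlapped those of Gαq. Over both diets Ak4 fell by 0.46 ± 0.16 (log2, SE; adjusted p = 0.0463).

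That call of Ak4 was lost in 12 of the fits that each left out 1 library, with adjusted p from 0.0533 without Gαq ERTU 17 to 0.123 without WT CD 4, the other 10 being those without WT CD 2, WT ERTU 12, 13 or 15, Gαq CD 7, 8 or 10, or Gαq ERTU 16, 18 or 20. In these 12 fits the log2 change ran from -0.49 without Gαq ERTU 17 to -0.34 without WT ERTU 15. The call was also lost on the deposited transformed values (adjusted p = 0.0714) and with the marker covariate (adjusted p = 0.144). Reads of Ak4 are uncertain in part, because the processed pseudogene Ak3l2-ps matches an Ak4 transcript at 99.6% of its bases, with an identical run of 294 bases. Ak3l2-ps stood at 1.28 to 7.73 CPM, and its log2 level had a Pearson correlation of 0.83 (Spearman 0.82) with that of Ak4 over the 18 libraries, which share depth.

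The question for ERTU was whether any of these genes changed with treatment. By diet, with genotype in the model, 0 of the 7 genes passed the edgeR quasi-likelihood test and 0 had an unadjusted p under 0.05, and 0% of all genes passed. ERTU in WT and the interaction likewise gave 0 of 7 and 0% of all genes, and ERTU in Gαq gave 0 of 7 and 0.00615% of all genes. In each of these comparisons 0 of the 7 genes had an unadjusted p under 0.05, and DESeq2 and limma voom also called 0. Of all 16270 genes, 1252 had such a p by diet and 313 by the interaction. The treatment gave 365 such genes among WT libraries and 1240 among Gαq libraries. Because so few of all genes reached it, a count of 0 among 7 cannot show that these genes do not respond. ERTU changes of Ckm were 0.08 ± 0.13 in WT (95% interval -0.18 to 0.35) and 0.05 ± 0.13 in Gαq (-0.22 to 0.31). Those of Ckmt2 were 0.18 ± 0.12 in WT (-0.08 to 0.43) and -0.04 ± 0.12 in Gαq (-0.29 to 0.22). In both genotypes these intervals leave out a rise by ERTU as large as the fall with Gαq on CD.

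Among the fitted ERTU changes of the 7 genes in either genotype, the largest in size was that of Ak4 in Gαq, -0.35 ± 0.23 (95% interval -0.83 to 0.13; adjusted p = 0.679). For Ak1, Ak3, Ckb and Slc6a8 the ERTU changes ran from -0.04 to 0.07 in WT and from -0.05 to 0.02 in Gαq.

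The wider phosphotransfer network was read through 47 further genes in 7 lists, of which 40 could be tested. By genotype, 7 of the 40 were higher and 6 lower, against 9.72% and 9.92% of all genes tested. Their median log2 change was -0.05, beside 0.00 over all genes. On CD alone 4 were higher and 1 lower (4% and 4.1% of all genes), and on ERTU alone 3 were higher and 1 lower (3.93% and 4.24%). Treated Gαq against untreated WT gave 2 higher and 0 lower (2.63% and 2.61%), and the ERTU comparisons and the interaction gave 0.

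Of 12 tested genes for AMP deamination, breakdown and salvage, 1 rose and 4 fell by genotype. Nt5e, whose product cleaves extracellular AMP to adenosine, stood between 12.6 and 28.3 CPM in WT libraries and between 33.3 and 47.6 CPM in Gαq libraries, with no overlap of the genotypes. It rose by 1.03 ± 0.12 (log2, SE; adjusted p = 3.97e-06) and was called on either diet, at 1.04 and 1.02. Nt5e is also expressed by fibroblasts, whose markers were higher in Gαq as given above, and their part was not tested.

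The 4 that fell handle AMP and its precursors inside the cell. Ampd3, an AMP deaminase, fell by 0.53 ± 0.13, and Adssl1, the muscle adenylosuccinate synthase, fell by 0.33 ± 0.079. Adk, which phosphorylates adenosine to AMP, fell by 0.26 ± 0.072, and Adsl, the adenylosuccinate lyase, fell by 0.26 ± 0.072 (adjusted p for the 4 from 0.00498 to 0.0138). On CD alone Adssl1 fell by 0.40 ± 0.11 (adjusted p = 0.0326), and on ERTU alone Adk fell by 0.35 ± 0.10 (adjusted p = 0.0345). The call of Adssl1 was lost without WT CD 1, 2 or 4 or Gαq CD 7, 8 or 9 (log2 change -0.40 to -0.35, adjusted p up to 0.117), without the filter on low counts and in the fit of only the groups compared (adjusted p = 0.0554 and 0.0578). That of Adk was lost without WT ERTU 11 or 14 or any 1 of the Gαq ERTU libraries (log2 change -0.36 to -0.29, adjusted p up to 0.0851) and without the filter (adjusted p = 0.0793).

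Among 9 tested nucleoside diphosphate and monophosphate kinases, 2 rose and 0 fell by genotype. Nme1, a nucleoside diphosphate kinase, ran from 6.13 to 10.6 CPM in WT and from 8.53 to 16.5 CPM in Gαq, and rose by 0.47 ± 0.12 (log2, SE; adjusted p = 0.00870). On CD it rose by 0.64 ± 0.17 (adjusted p = 0.0242), a call lost without WT CD 1, 2 or 5 or Gαq CD 7 or 8 (log2 change 0.50 to 0.62, adjusted p from 0.0559 to 0.0848). The longest run of bases shared by transcripts of Nme1 and its paralog Nme2 was 29. The annotated gene Gm20390 overlaps both on the same strand, so the counts of both are uncertain, and Nme2 did not pass the test.

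Of 8 genes for ATP and ADP exchange across the mitochondrial membranes, 1 rose and 1 fell. Vdac1, the main channel of the outer membrane, lay between 999 and 1337 CPM in WT libraries and between 892 and 1096 CPM in Gαq libraries, and fell by 0.29 ± 0.068 (log2, SE; adjusted p = 0.00437). Slc25a23, a carrier of ATP-Mg and phosphate, rose by 0.22 ± 0.058 (adjusted p = 0.00913). Slc25a4, the adenine nucleotide translocase of heart, did not pass the test. Ak6, a further adenylate kinase gene with enough counts, did not pass either.

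Of 7 subunits of the AMP-activated protein kinase, 2 rose and 1 fell by genotype. Prkab2, the beta 2 subunit, lay between 64.7 and 86.0 CPM in WT libraries and between 79.6 and 138 CPM in Gαq libraries, and rose by 0.42 ± 0.085 (log2, SE; adjusted p = 0.00110). Its call on CD (0.40 ± 0.12, adjusted p = 0.04997) sat at the threshold and was lost without any 1 library other than Gαq ERTU 16, Gαq ERTU 17 or WT ERTU 14 (adjusted p up to 0.149). That call was also lost with median-of-ratios scaling and without the filter on low counts (adjusted p = 0.0503 and 0.0563). The Prkab2 call on ERTU (0.44 ± 0.12, adjusted p = 0.0287) was lost without Gαq ERTU 17 (0.26, adjusted p = 0.123), Gαq ERTU 18, or WT ERTU 12, 13 or 14. It was lost as well in the fit of only the groups compared (0.44, adjusted p = 0.0838). The last 3 genes called by genotype were named after their values were seen, and their calls were not followed through the alternative runs. The catalytic subunit gene Prkaa2 fell by 0.50 ± 0.14 (adjusted p = 0.0162). The muscle subunit gene Prkag3, with group means of 2.86 to 4.92 CPM, rose by 0.52 ± 0.16 (adjusted p = 0.0275). The guanylate kinase gene Guk1 rose by 0.26 ± 0.075 (adjusted p = 0.0173).

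**Figure D4:**
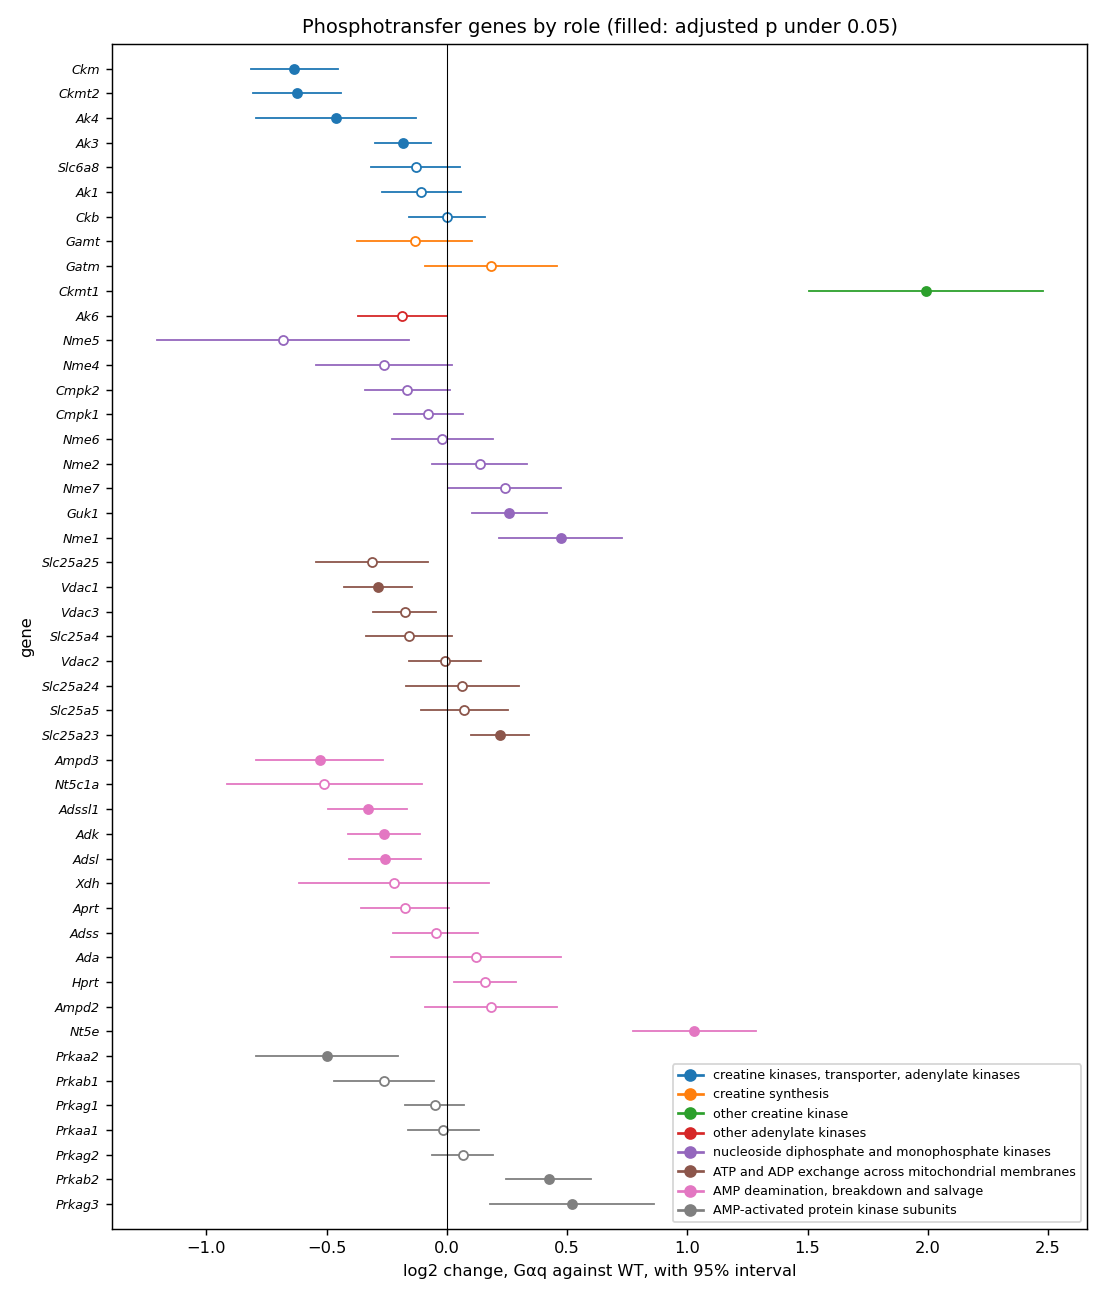
Log2 change of Gαq against WT over both diets (horizontal axis) with its 95% interval for the 47 tested genes, 7 leading genes and 40 others, coloured by role. Filled points passed an adjusted p of 0.05. Ckmt1 at 1.99 and Nt5e at 1.03 lie farthest right, Ckm and Ckmt2 at -0.63 and -0.62 lead the falls that were called, and Nme5, further left, was not called.

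Genes whose log2 level followed each of the 7 most closely were sought among 13091 genes over the 18 libraries. For Ckm these were Ndufa10, a complex I subunit, and Echs1, an enzyme of fatty acid oxidation (Pearson 0.96 for both). For Ckmt2 they were Ptges2 (0.97) and Car14 (0.96), and Car14 stayed among the closest 2 after group means were taken out (0.87). For Ckb the closest were Acta2, the smooth muscle actin gene (0.67), and Btk (0.66). Smooth muscle and pericyte markers summed to 993 to 1287 CPM in WT CD and 865 to 1274 CPM in Gαq CD, and their part in the Ckb level was not tested. The part of fibroblasts, whose markers were higher in Gαq as given above, was not tested for Ckb either.

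For Slc6a8 the closest were Nf2 and Prdm16 (both 0.91), for Ak1 Ppp1r16a (0.94) and Slc25a13 (0.92), for Ak3 Afg1l (0.92) and Prodh (0.91), and for Ak4 Rap1gap2 and Reep5 (both 0.92). After group means were taken out, the closest were Gm5514 (0.93) and Eno3 (0.92) for Ckm, Ttc38 (0.87) for Ckmt2, Pcolce (0.79) and Lmna (0.76) for Ckb, and Klc2 and Pigo (both 0.92) for Slc6a8. For Ak1 they were Lrrc14b (0.96) and Ppp1r16a (0.95), for Ak3 Gpt2 (0.86) and Afg1l (0.84), and for Ak4 Afap1l1 (0.95) and Npy4r (0.94). Best matches out of 13091 are high by selection, and points of a library share its depth and composition.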

How the data were processed

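RNA was sequenced from poly(A)-selected libraries of 18 LV samples. The authors aligned reads to mm10 with STAR (version 2.6.0c) and deposited raw counts of uniquely aligned read pairs per Ensembl gene, made on the same strand with featureCounts (Subread 1.6.2) for nuclear-encoded genes. The authors also deposited log2-like values from the variance-stabilizing transformation of DESeq2, used here only as an alternative. Symbols, positions and lengths came from GENCODE M21 (GRCm38), which matched 55190 gene IDs (99.5%).

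The counts were filtered with filterByExpr, scaled by TMM and tested gene by gene by quasi-likelihood F tests (edgeR 4.0.16, R 4.3.3), 2-sided, with Benjamini-Hochberg adjustment over 16270 genes and a threshold of 0.05. Genotype and diet came from an additive model, and the other comparisons from 1 mean per group. All 18 libraries entered each fit. Genes left out held 0.0906% of counts. Log2 CPM used a prior count of 2. Intervals are 95% from the fit. Chi-square values of counts between the 32 pairs of libraries within groups, averaged over genes, were 11.5 to 53.9 per degree of freedom. No p was computed from them, but none of these pairs agreed within sampling noise. The steps were checked on simulated counts. The alternatives were median-of-ratios scaling, no filter, a filter at mean CPM of 1, DESeq2 1.42.0, limma 3.58.1 voom with quality weights, limma on the deposited values, fits of only the groups compared, fits without 1 library, other gene lengths and a marker covariate. Depth was 15383566 to 20908363 counts per library, and the error given is the spread between libraries.

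The 7 genes and all lists were chosen with earlier results of these data known. Named beyond them are, per comparison, up to 10 called genes of the phosphotransfer lists by smallest adjusted p, and the 2 genes most correlated with each of the 7. One gene of the phosphotransfer lists is not reported here. Of 8 comparisons, those with a common group share its libraries.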

Additional observations from a re-analysis of the deposited data

Results flagged for a closer look

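In 68 sets of values (a gene in a group), 6 had a library whose gap to its nearest neighbour, as a share of the range of the group, passed Dixon's 95% critical value, where chance would give about 1 in 20, or 3.4. Ckm in WT CD was lowest in library 5 (1910.0 CPM against 2589 to 2634 in the others, gap share 0.937), and in WT ERTU lowest in library 14 (2012 CPM against 2641 to 2784, 0.815). Both libraries also had the lowest cardiomyocyte marker sums of their groups, and the highest sums of fibroblast, atrial, fat, macrophage, and Schwann cell and neuron markers. Slc6a8 in Gαq ERTU was highest in library 17 (284 CPM against 219.5 to 228, 0.873). Nt5e in the same group was lowest in library 17 (33.3 CPM against 44.3 to 45.9, 0.871). Ckmt1 in Gαq CD was highest in library 8 (4.21 CPM against 1.48 to 1.97, 0.820). Nme1 in WT CD was highest in library 4 (9.15 CPM against 7.21 to 7.46, 0.869).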

How the results depend on the processing

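No result changed direction past the threshold in any alternative run. Genes of the 7 called by genotype numbered 4, and 2 (Ckm and Ckmt2) with the cardiomyocyte marker covariate, which was chosen after seeing the data. On ERTU they numbered 2, and 4 by voom, which added Ak3 and Ak4. The DESeq2 Wald test added Ak3 on ERTU (log2 change -0.23, adjusted p = 0.0305). Phosphotransfer list genes called on CD numbered 5, and 3 without the filter and 8 by voom. On ERTU they numbered 4, and 8 by DESeq2 and 11 by voom. In treated Gαq against untreated WT they numbered 2, and 8 by voom. Fits that each left out 1 library gave 3 to 4 of the 7 genes by genotype, 1 to 2 on CD, 2 on ERTU and 0 to 3 in treated Gαq against untreated WT (0 without WT CD 1). For the phosphotransfer lists they gave 12 to 16 by genotype, 2 to 5 on CD, 2 to 5 on ERTU and 2 to 3 in treated Gαq against untreated WT. Diet, ERTU in WT, ERTU in Gαq and the interaction gave 0 throughout. Shares of all genes called were taken for the main fit only, so the counts under the alternatives have no such share beside them. The cause of these differences was not tested. No paired analysis was possible because the numbers of the columns run across the series and were not linked to the replicate numbers of the labels. Precision is limited by 4 or 5 hearts per group and, for Ckmt1, by 4 to 12 read pairs per WT library.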

Other observations

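Slc6a8, Ak1 and Ak4 shared their highest WT libraries. In WT CD library 4 held the highest value of all 3 genes (284, 617 and 54.0 CPM), and in WT ERTU library 15 did (343, 697 and 55.8 CPM). Neither library was highest for Ckm or Ckmt2 in its group.

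The creatine synthesis genes Gatm and Gamt had the lower values on ERTU, with log2 changes by diet of -0.37 ± 0.13 and -0.30 ± 0.11, neither of which passed the adjustment over all genes (adjusted p = 0.639 for both). They were the 2 of 40 tested list genes with an unadjusted p under 0.05 by diet, where 1252 of all 16270 genes had one. In Gαq LV, Gatm was at 13.5 ± 3.06 CPM on CD (SD, n = 5) and 9.32 ± 1.17 CPM on ERTU (SD, n = 4), and the groups overlapped (8.79 to 16.4 against 8.23 to 10.6 CPM).

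Of the 47 list genes, 7 were too low to test. Ak5, Ak7, Ak8, Ak9, Ampd1 and Nt5c1b did not exceed 0.458 CPM in any library, and Nme3 was listed at 0 in all 18 libraries.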
